A study of Mus musculus with 13 samples.

Results

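Protein phosphatases remove phosphate from proteins. The genes described here are those whose symbols mark them as serine/threonine phosphatases and their subunits (Ppp followed by a digit, and Ppm1) or as classical tyrosine phosphatases (Ptpn and Ptpr), with Ptpn5 left out. A probe set is a group of short probes that together give 1 value for a transcript. All probe sets annotated to 1 such gene were taken, whatever their values, which gave 89 probe sets for 67 genes, of 8251 genes that had a probe set of their own on the array of 12488 probe sets. Of these, 61 probe sets (55 genes) were bright enough to be tested, among 7453 tested in all. Ptprcap, a protein that binds a leukocyte phosphatase and is not itself one, entered through its symbol, and 1 probe set shared by Ppp2r3c and another gene was left out.

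The samples were 13 Affymetrix MG-U74Av2 arrays of whole brain hemispheres of mice. R6/2 mice, which express a fragment of human huntingtin with an expanded CAG repeat from that gene's own promoter and develop a disease like Huntington's, were compared with wild type mice, with and without a triple treatment. There were 3 arrays of treated R6/2 mice, 4 of untreated R6/2 mice, 3 of treated wild type mice and 3 of untreated wild type mice. Treatment joined tacrine, a cholinesterase inhibitor, at 2.7 mg/kg per day from week 5, moclobemide, an inhibitor of monoamine oxidase A, at 10 mg/kg per day, and creatine at 1% in the mash. The groups follow the titles, because the descriptions name the drugs for every sample, untreated ones too. An age at harvest, 8 weeks, is given for 1 untreated wild type sample, and no label gives sex or background strain. Each title ends in a number of its own, which the descriptions repeat as a lot or batch number with 1 exception given below. No label ties these numbers to animals, so a p-value measures only the spread between these samples, which may be technical. Arrays are numbered within a group in the order of deposit.

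PP1 and PP2A carry out most serine/threonine dephosphorylation in brain. Their catalytic subunits gain targets and inhibition from regulatory subunits, and in striatal neurons PP1 inhibitors are switched on by dopamine signalling through protein kinase A. Calcineurin is the calcium- and calmodulin-dependent phosphatase, built of a catalytic A and a regulatory B subunit and abundant in the striatum, the region most affected in Huntington's disease. Receptor tyrosine phosphatases sit in the plasma membrane, where they bind adhesion molecules and proteoglycans and steer axon growth and synapse formation.

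Values are the deposited signals on a linear scale, whose median was 39.6 to 45.1 per array. Untreated R6/2 arrays 3 and 2 stood apart from the others. Their scores on the first principal component of all tested probe sets, which held 33.9% of the variance, were 45.7 and 25.4, and no other array scored above 4.09. In 26 of 61 phosphatase probe sets (42.6%) both arrays lay above or both lay below untreated R6/2 arrays 1 and 4, against 56.8% of all tested probe sets. In 3 untreated R6/2 arrays the 66 control values were those of another array multiplied by 1.2 (tolerance 0.05): array 2 matched treated R6/2 array 1, array 3 matched treated R6/2 array 3, and array 4 matched untreated R6/2 array 1. For these arrays the controls therefore carry no information of their own on quality. The description of treated R6/2 array 1 carries the lot number of untreated R6/2 array 4, not that of its own title. The treatment of these R6/2 arrays rests on their titles alone and could not be checked against their values, which bears on every comparison that uses an R6/2 group. Without untreated R6/2 array 4 and treated R6/2 array 1, 12 of 61 phosphatase probe sets passed for genotype in untreated mice. The share over all tested probe sets in that fit is not given here, so this count shows only how far the number moved. In the same fit 0 passed for genotype in treated mice, where 16 of all 7453 tested probe sets passed, and 0 passed for treatment in R6/2 mice and the interaction. With all arrays 11 passed for genotype in untreated mice (18%, against 11.9% of all tested probe sets).

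Only Ptpro, Ptprs and Ppp1r1a, of the 61 phosphatase probe sets, had no overlap between the 7 R6/2 and the 6 wild type arrays (4.92%, against 3.81% of all tested probe sets). Ptpro encodes a receptor tyrosine phosphatase of neurons and kidney podocytes that takes part in axon guidance, and Ptprs a receptor for heparan and chondroitin sulfate proteoglycans that restrains axon growth. Promoter sequences of these 2 genes are shown because theirs were the separated genes with an entry in the RefSeq table (GRCm38.p6), each as the 250 bases before an annotated start on the gene's strand. Ptpro has 1 such window, at chr6:137252049-137252298 on the plus strand, and Ptprs has 2, at chr17:56462222-56462471 and chr17:56476481-56476730, both on the minus strand. Capitals mark the GC box (GGGCGG, on either strand), a motif bound by Sp1.
Ptpro: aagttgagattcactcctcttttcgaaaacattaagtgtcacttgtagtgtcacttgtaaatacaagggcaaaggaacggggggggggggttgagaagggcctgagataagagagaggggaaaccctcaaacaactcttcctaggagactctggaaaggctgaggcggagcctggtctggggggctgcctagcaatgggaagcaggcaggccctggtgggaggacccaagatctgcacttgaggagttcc
Ptprs, window 1: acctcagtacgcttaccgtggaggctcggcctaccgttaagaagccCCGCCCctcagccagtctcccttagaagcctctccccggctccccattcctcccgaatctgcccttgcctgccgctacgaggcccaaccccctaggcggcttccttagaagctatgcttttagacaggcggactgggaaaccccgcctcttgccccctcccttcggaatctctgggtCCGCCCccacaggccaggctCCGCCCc
Ptprs, window 2: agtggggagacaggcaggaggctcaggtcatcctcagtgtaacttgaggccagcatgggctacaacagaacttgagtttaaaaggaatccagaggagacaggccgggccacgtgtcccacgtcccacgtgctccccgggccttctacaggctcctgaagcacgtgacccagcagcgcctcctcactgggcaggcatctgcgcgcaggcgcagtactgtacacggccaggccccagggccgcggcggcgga
The first Ptprs window held 3 GC boxes, all read as CCGCCC on the printed strand, and the other windows held none. None of the windows held the half-site of the cyclic AMP response element (TGACG, on either strand) or the full element (TGACGTCA), which contains that half-site. Over 62 windows of the 44 tested phosphatase genes with an entry, 67.7% held a GC box, 35.5% a half-site and 6.45% a full element. Over all 32851 windows of the table, which hold genes of every type, these shares were 32.7%, 17.8% and 1.55%. Among 17 windows of the 10 genes that passed the genotype test in untreated mice and had an entry, the shares were 41.2%, 29.4% and 5.88%. A match describes letters only and is not a site of binding.

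Ptpro had the most stable genotype difference. Its signals were 176.6, 159.9 and 159.1 in treated R6/2 arrays and 218.5, 199.5, 238.2 and 218.3 in untreated R6/2 arrays, against 150.6, 136.5 and 123.8 in treated and 125.8, 139.0 and 143.6 in untreated wild type arrays. The 4 untreated R6/2 arrays lay above every other array, and the 3 treated R6/2 arrays lay between them and the wild type arrays. With the arrays of all groups in 1 limma fit, Ptpro rose in R6/2 against wild type by 0.68 ± 0.12 on the log2 scale (± is the SE here and below) in untreated mice (adjusted p = 0.00428) and by 0.48 ± 0.08 averaged over treatment (adjusted p = 0.00386). In treated mice the difference was 0.27 ± 0.12 (adjusted p = 0.528). The call held in all 23 alternative fits for untreated mice and in all 22 for the average.

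Ppp1r1a encodes inhibitor-1, which blocks PP1 once protein kinase A has phosphorylated it. It had signals of 36.4, 40.8 and 30.5 in treated and 43.0, 43.2, 41.3 and 36.6 in untreated R6/2 arrays, against 54.3, 62.5 and 55.7 in treated and 66.6, 55.2 and 54.1 in untreated wild type arrays. Every R6/2 array was below every wild type array, under both treatments. Ppp1r1a fell by 0.60 ± 0.12 on the log2 scale averaged over treatment (adjusted p = 0.00741), and kept this call in all 21 alternative fits that tested it. The separate differences, -0.69 ± 0.17 in treated mice (adjusted p = 0.0933) and -0.51 ± 0.16 in untreated mice (adjusted p = 0.0512), did not pass. In treated mice it passed with array weights (-0.77, adjusted p = 0.0112) and without the intensity trend (-0.69, adjusted p = 0.0477), and in untreated mice without that trend (-0.51, adjusted p = 0.0339).

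Ptprs had signals of 460.1, 502.4 and 417.0 in treated and 482.0, 473.9, 351.3 and 507.4 in untreated R6/2 arrays, against 551.8, 521.5 and 554.6 in treated and 554.7, 629.7 and 621.3 in untreated wild type arrays. The groups were separate, but by little between the highest R6/2 and the lowest wild type array. Ptprs fell by 0.42 ± 0.13 in untreated R6/2 mice (adjusted p = 0.0484) and by 0.33 ± 0.09 averaged over treatment (adjusted p = 0.0499). Both p-values lay at the threshold, and the call was lost in most alternative fits: it held in 7 of 23 for untreated mice and in 7 of 22 for the average.

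**Figure D1:**
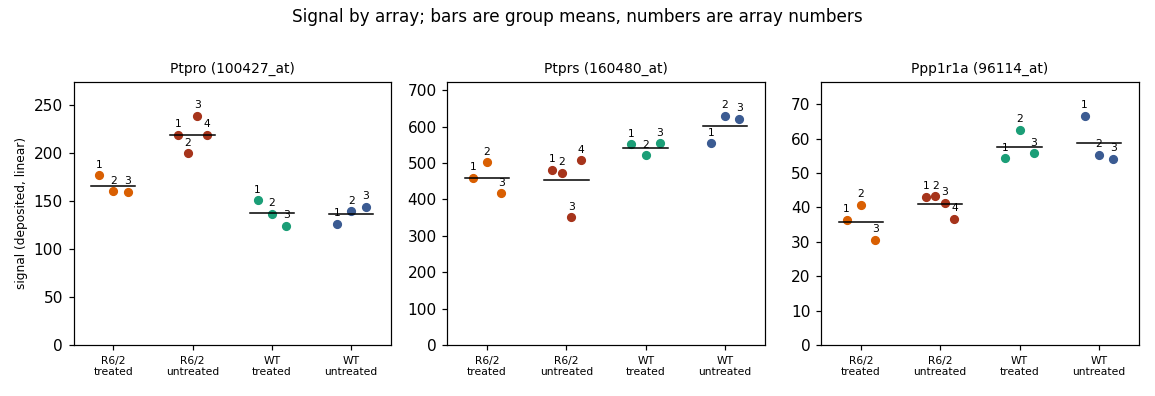
Deposited signal (linear scale) of Ptpro, Ptprs and Ppp1r1a on each of the 13 arrays, by group; points are arrays with their numbers and bars are group means. Ptpro was higher, and Ptprs and Ppp1r1a were lower, in all 7 R6/2 arrays than in all 6 wild type arrays.

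The question of the genotype comparison was which phosphatase genes differ in R6/2 brain, first without treatment. In untreated R6/2 mice 6 phosphatase probe sets rose (Ptpn13, Ptpro, Ptpre, Ptprr, Ppp1cc and Ptpn9) and 5 fell (Ptpru, Ppp1r2, Ptprg, Ppp2r2b and Ptprs) against untreated wild type mice. These were 11 of 61 (18%), where 11.9% of all 7453 tested probe sets passed, 5.49% higher and 6.41% lower. In 18 of 61 (29.5%), 8 higher and 10 lower, the 2 groups did not overlap, against 26.2% of all. The median log2 difference of the phosphatase probe sets was 0.01, against 0.04 over all tested, and the median size was 0.26 in both. The count depended on single arrays. It was 1 without untreated wild type array 2 or array 3, 6 without untreated wild type array 1, 4 without untreated R6/2 array 2, and 5 without untreated R6/2 array 3. It was 7 without treated R6/2 array 1, treated R6/2 array 3 or treated wild type array 2. Without untreated R6/2 arrays 2 and 3 together it was 2 (3.28%, against 2.19% of all), Ptpro and Ppp3ca. The count over all 7453 tested probe sets, 887 with all arrays, moved as well. It became 157, 220 and 392 without untreated wild type array 2, 3 or 1. Without untreated R6/2 array 2 it was 397, and without array 3 it was 491.

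Markers of several cell types differed between the same groups. Signals of 7 striatal projection neuron markers summed to 1944 to 2018 in treated and 2029 to 2245 in untreated R6/2 arrays, against 4065 to 4625 in treated and 3862 to 4555 in untreated wild type arrays. Of these 7, 4 fell in treated and 5 in untreated R6/2 mice. In untreated R6/2 mice 4 of 7 general neuron markers, 4 of 6 oligodendrocyte markers and 2 of 6 astrocyte markers fell, while 0 of 8 microglia and leukocyte, 0 of 6 endothelial and 0 of 2 oligodendrocyte precursor markers passed. The summed ranges in untreated R6/2 against untreated wild type arrays were 4964 to 6321 and 6759 to 6871 for neurons, 2127 to 2746 and 3651 to 4163 for oligodendrocytes, and 2541 to 3120 and 3136 to 3156 for astrocytes. They were 776.7 to 1087 and 999.1 to 1194 for microglia and leukocytes, 301.3 to 337.2 and 247.1 to 287.5 for endothelium, and 359.1 to 436.6 and 413.2 to 455.3 for oligodendrocyte precursors. Such sums of linear signals follow the brightest genes of a list. Snap25, the brightest neuron marker, ran from 2319.2 to 4167.3 in untreated R6/2 arrays and did not pass (0.05 ± 0.16, adjusted p = 0.875). None of the 42 tested markers had a value of 0, and Aif1, Itgam, Tie1 and Cnp were too dim to test. Their part in the phosphatase differences was not tested, and in whole tissue fewer cells of a type and less RNA per cell cannot be told apart.

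Among the receptor tyrosine phosphatases, with Ptprcap counted by its symbol, 33 probe sets were on the array and 18 were tested. In untreated R6/2 mice 3 rose and 3 fell, and 9 estimates were positive and 9 negative, with a median log2 difference of -0.03. Ptprcap, not itself a phosphatase, was among the negative ones (-0.10 ± 0.17). Ptpre, which acts on Src kinases and potassium channels, had signals of 309.0, 346.7, 274.4 and 254.0 in untreated R6/2 arrays and 209.4, 196.9 and 201.6 in untreated wild type arrays. These groups were well apart, and Ptpre rose by 0.54 ± 0.12 (adjusted p = 0.0166). Treated R6/2 arrays had 304.9, 306.9 and 276.2 and treated wild type arrays 247.1, 269.8 and 297.9, which overlapped. The average over treatment passed for Ptpre at 0.33 ± 0.09 (adjusted p = 0.0401).

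Ptprr, which dephosphorylates MAP kinases, had signals of 291.4, 336.9, 470.7 and 310.3 in untreated R6/2 arrays and 245.0, 244.7 and 244.5 in untreated wild type arrays. Array 3 was far above the other untreated R6/2 arrays, and all 4 exceeded the wild type arrays, which were nearly equal. Ptprr rose by 0.50 ± 0.15 (adjusted p = 0.0475), and a second Ptprr probe set was too dim to test. In treated mice the difference was 0.09 ± 0.16 (adjusted p = 0.96).

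Ptpru, a receptor phosphatase with a MAM adhesion domain, had the largest estimate of the 61. It had signals of 74.2, 68.2, 33.1 and 103.0 in untreated R6/2 arrays, against 142.7, 116.3 and 142.0 in untreated wild type arrays. All 4 R6/2 arrays were below the wild type arrays, array 3 by the most. Ptpru fell by 1.05 ± 0.29 (adjusted p = 0.0357). The difference was -0.61 (adjusted p = 0.16) when untreated R6/2 arrays 2 and 3 were left out. In treated mice it was -0.17 ± 0.31 (adjusted p = 0.96), with 143.6, 142.2 and 85.5 in R6/2 arrays and 127.2, 137.2 and 141.5 in wild type arrays.

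Ptprg, a receptor phosphatase that binds contactins, had signals of 50.3, 40.3, 47.6 and 50.8 in untreated R6/2 arrays and 67.8, 67.9 and 74 in untreated wild type arrays. The groups did not overlap, and Ptprg fell by 0.57 ± 0.17 (adjusted p = 0.0411). Averaged over treatment its difference was -0.42 ± 0.12 (adjusted p = 0.0519), which passed in 7 alternative fits, among them array weights (-0.44, adjusted p = 0.0171). Ptprf (LAR), the close relative of Ptprs, did not pass in untreated mice (-0.36 ± 0.12, adjusted p = 0.0722), nor did Ptprn, a catalytically inactive member found on dense-core vesicles (-0.44 ± 0.15, adjusted p = 0.0758). Ptprf passed without untreated R6/2 array 1, and Ptprn without that array or without untreated R6/2 array 4. Ptprn was the brightest probe set of the family, and untreated R6/2 array 3 (427.5) lay far below the other 3 of its group (670.3 to 724.8).

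The non-receptor tyrosine phosphatases had 14 probe sets, of which 7 were tested. In untreated R6/2 mice 2 rose and 0 fell, with a median log2 difference of 0.15. Ptpn13, a large cytoplasmic phosphatase with FERM and PDZ domains, had signals of 43.3, 46.2, 62.1 and 42.5 in untreated R6/2 arrays and 35.4, 25.9 and 27.1 in untreated wild type arrays. It rose by 0.72 ± 0.19 (adjusted p = 0.0323), or by 0.66 with an adjusted p of 0.0527 after quantile normalization. Ptpn9, which carries a lipid-binding Sec14 domain and sits on secretory vesicles, had 239.3, 222.6, 312.0 and 250.7 in untreated R6/2 arrays and 159.2, 200.9 and 188.8 in untreated wild type arrays. Ptpn9 rose by 0.48 ± 0.14 (adjusted p = 0.0453). Neither pair of groups overlapped. In treated mice the differences were 0.10 ± 0.21 for Ptpn13 (adjusted p = 0.964) and -0.02 ± 0.15 for Ptpn9 (adjusted p = 0.992).

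The catalytic subunits of PP1 and PP2A had 4 tested probe sets, all with positive estimates in untreated R6/2 mice, of which 1 passed. Ppp1cc, the gamma subunit of PP1, had signals of 427.4, 624.2, 601.8 and 511.7 in untreated R6/2 arrays and 395.8, 381.1 and 369.5 in untreated wild type arrays. Arrays 2 and 3 were the highest of the 4 R6/2 arrays, and array 1 was nearest to wild type. Ppp1cc rose by 0.49 ± 0.14 (adjusted p = 0.0366), and without arrays 2 and 3 the difference was 0.29 (adjusted p = 0.243). Ppp1cb, the beta subunit, had 473.8, 613.9, 625.8 and 453.8 in untreated R6/2 arrays and 470.5, 353.7 and 319.5 in untreated wild type arrays, which overlapped (0.51 ± 0.17, adjusted p = 0.059). Ppp1cb passed in 6 of 23 alternative fits, among them quantile normalization (0.52, adjusted p = 0.048) and array weights (0.52, adjusted p = 0.0412). The PP2A subunits had estimates of 0.42 ± 0.18 for Ppp2ca (adjusted p = 0.124) and 0.28 ± 0.12 for Ppp2cb (adjusted p = 0.131). In treated mice these 4 estimates ranged from -0.24 to 0.12.

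Of the regulatory subunits of PP1, 11 of 14 probe sets were tested, and 1 fell in untreated R6/2 mice. Ppp1r2 encodes inhibitor-2, which binds the PP1 catalytic subunit directly. On one of its probe sets (95680_at) signals were 65.9, 55.5, 71.0 and 74.7 in untreated R6/2 arrays, against 99.3, 108.9 and 103.2 in untreated wild type arrays. These were separate, and the probe set fell by 0.64 ± 0.15 (adjusted p = 0.0163). The other (95681_f_at), whose suffix marks probes shared with similar transcripts, had 33.0, 47.3, 39.7 and 27.1 against 32.4, 46.3 and 28.8, and gave 0.04 ± 0.30 (adjusted p = 0.947). In treated mice the first had 97.8, 78.1 and 97.4 in R6/2 arrays against 73.1, 91.4 and 74.3 in wild type arrays (0.19 ± 0.16, adjusted p = 0.83), so the estimate had the opposite sign. The brightest PP1 regulatory probe set, Ppp1r21, gave 0.01 ± 0.09 in untreated mice (adjusted p = 0.956).

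PP2A regulatory subunits had 5 tested probe sets, of which 1 fell. Ppp2r2b, a neuronal subunit whose gene carries the repeat expansion of a spinocerebellar ataxia in people, had signals of 412.3, 473.9, 478.4 and 544.9 in untreated R6/2 arrays and 582.7, 768.7 and 746.0 in untreated wild type arrays. Ppp2r2b fell by 0.55 ± 0.13 (adjusted p = 0.0197) in untreated mice and by 0.35 ± 0.10 (adjusted p = 0.0423) averaged over treatment. Treated R6/2 arrays had 474.6, 492.3 and 390.4, against 500.9, 505.3 and 488.9 in treated wild type arrays, an overlap of 1 R6/2 array (-0.15 ± 0.14, adjusted p = 0.884). The scaffold Ppp2r1a (-0.19 ± 0.14, adjusted p = 0.373) and the brightest regulatory subunit, Ppp2r5c (-0.25 ± 0.12, adjusted p = 0.162), did not pass.

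All 11 calls rested on the same 3 untreated wild type arrays. Leaving out untreated wild type array 2, or array 3, or untreated R6/2 arrays 2 and 3 together, ended the call of each except Ptpro. Ppp1r2, Ppp2r2b and Ptpre each kept theirs in 19 of 23 alternative fits, Ptpru in 16, Ppp1cc in 14, Ptpn13 in 15 of 22, Ptprg in 11 of 22, and Ptpn9 and Ptprr in 8 of 23. The calls of Ppp2r2b and Ptpre averaged over treatment held in fewer, 10 of 22 each, and in 4 of the 13 fits that left out 1 array.

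**Figure D2:**
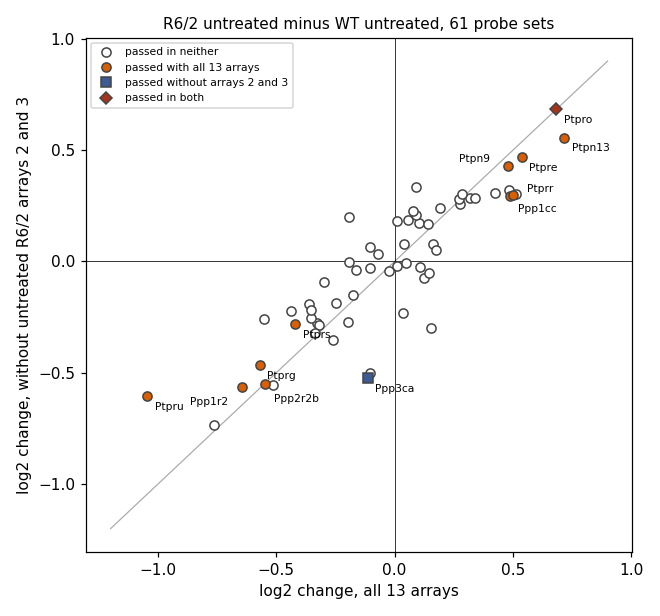
Log2 difference between untreated R6/2 and untreated wild type arrays for 61 phosphatase probe sets, with all arrays (horizontal axis) and without untreated R6/2 arrays 2 and 3 (vertical axis); the grey line marks equal values. Ptpro passed in both fits, Ppp3ca only on the vertical axis and the other 10 labelled probe sets only on the horizontal one.

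No phosphatase probe set passed in treated R6/2 against treated wild type mice with limma (0 of 61, against 0.792% of all, 0.0805% higher and 0.711% lower), and 7 had an unadjusted p under 0.05 (11.5%, against 9.19% of all). The groups did not overlap in 10 (16.4%, against 16.8% of all), which were Ppp1r1a, Ppp3ca, Ppp3cc, Ppp3r1, Ppp1r21, Ppm1g, Ptpro, Ptprs, and 1 probe set each of Ppm1b and Ptprm. The smallest adjusted p was that of Ppp1r1a. The difference between the 2 genotype effects is the interaction tested below, which passed for none. The 2 genotype comparisons share no arrays, and 41 of 61 phosphatase estimates had the same sign in both (67.2%), against 57.2% of all tested probe sets. Among the 11 that passed without treatment, the sign was the same with treatment for 9, all but Ppp1r2 and Ptpn9 (81.8%), against 75.4% of the 887 called among all. Across the 61 probe sets, which share the arrays and are not independent, Pearson's r was 0.28 and Spearman's rho 0.31, against 0.25 and 0.20 over all tested probe sets.

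Averaged over treatment, Ptpro and Ptpre rose and Ppp1r1a, Ppp2r2b and Ptprs fell, 5 of 61 (8.20%), against 6.61% of all tested probe sets, 2.58% higher and 4.04% lower. This average shares its arrays with both comparisons above. The count was 3 without untreated wild type array 1, treated wild type array 1 or treated R6/2 array 2, and 2 without untreated wild type array 2, untreated wild type array 3, treated wild type array 2, untreated R6/2 array 2, treated R6/2 array 1 or treated R6/2 array 3. Ptpro and Ppp1r1a held without any single array. Over all tested probe sets the count, 493 with all arrays, ran from 263 to 704 when 1 array was left out.

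**Figure D3:**
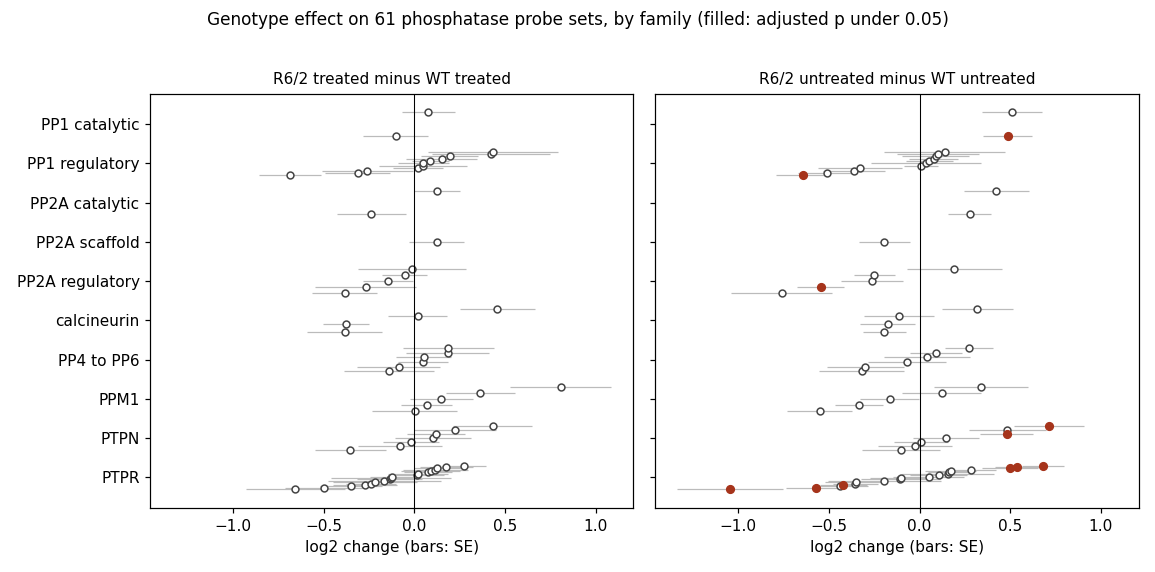
Log2 difference between R6/2 and wild type arrays for each tested phosphatase probe set, by family, in treated mice (left) and untreated mice (right); points are estimates, bars are SE and filled points have an adjusted p under 0.05. The 11 filled points are all in untreated mice and spread over the PP1, PP2A regulatory, PTPN and PTPR families, on both sides of 0.

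Calcineurin had 4 probe sets, all tested, and none passed in any comparison of the reported fit to all arrays, before the alternatives given below. Their median log2 difference was -0.18 in treated and -0.14 in untreated R6/2 against wild type mice, and -0.20 in R6/2 and -0.06 in wild type mice for treated against untreated. Ppp3ca, the main catalytic subunit in brain, had signals of 921.0, 1120.2 and 1018.7 in treated and 1013.7, 1794.5, 1934.2 and 1097.7 in untreated R6/2 arrays. Wild type arrays had 1435.1, 1372.6 and 1191.4 with treatment and 1494.5, 1672.3 and 1395.0 without. The treated R6/2 arrays were all below the treated wild type arrays, whereas untreated R6/2 arrays 2 and 3 were the highest of all 13 and arrays 1 and 4 lay below every wild type array. The estimates were -0.39 ± 0.21 in treated mice (adjusted p = 0.65), -0.11 ± 0.20 in untreated mice (adjusted p = 0.729) and -0.25 ± 0.14 on average (adjusted p = 0.311). Without untreated R6/2 arrays 2 and 3, Ppp3ca was 0.52 lower in untreated R6/2 mice (adjusted p = 0.0435) and 0.45 lower on average (adjusted p = 0.00563), and both passed. That fit kept only arrays 1 and 4 of the untreated R6/2 group. Neither difference passed in any other alternative fit.

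Ppp3r1, the calcium-binding regulatory subunit, had signals of 1223.1, 1368.5 and 1204.1 in treated and 1234.1, 1277.6, 1583.7 and 1318.5 in untreated R6/2 arrays. Wild type arrays had 1621.1, 1482.1 and 1840.2 with treatment and 1373.9, 1676.7 and 1592.6 without. The treated groups were separate and the untreated groups overlapped. The estimates were -0.38 ± 0.13 in treated mice (adjusted p = 0.277), -0.20 ± 0.12 in untreated mice (adjusted p = 0.279) and -0.29 ± 0.09 on average (adjusted p = 0.0641). The average passed after quantile normalization (-0.28, adjusted p = 0.0127), with array weights (-0.30, adjusted p = 0.0152) and without untreated R6/2 arrays 2 and 3 (-0.33, adjusted p = 0.0327). It also passed without untreated R6/2 array 3 alone (-0.33, adjusted p = 0.0204). These were 4 of the 22 alternative fits for the average, and it did not pass in the others.

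For the other catalytic subunits no difference passed either. Ppp3cc, which is best known from testis, had signals of 29.9, 37.2 and 33.1 in treated R6/2 arrays, against 20.6, 24.0 and 28.7 in treated wild type arrays. These did not overlap (0.46 ± 0.21, adjusted p = 0.533), and the values were close to the brightness needed for testing (24.9). In untreated mice Ppp3cc had 34.9, 43.2, 40.7 and 46.2 in R6/2 arrays against 33.7, 37.4 and 28.3 in wild type arrays, which overlapped (0.32 ± 0.20, adjusted p = 0.288). Ppp3cb, the second catalytic subunit of brain, overlapped in all comparisons of groups, with 176.2, 200.7 and 259.9 in treated R6/2 and 209.4, 229.7 and 184.5 in treated wild type arrays. Untreated R6/2 arrays had 177.2, 203.4, 143.5 and 177.1 for Ppp3cb and untreated wild type arrays 188.8, 196.6 and 204.6 (-0.18 ± 0.15, adjusted p = 0.454).

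**Figure D4:**
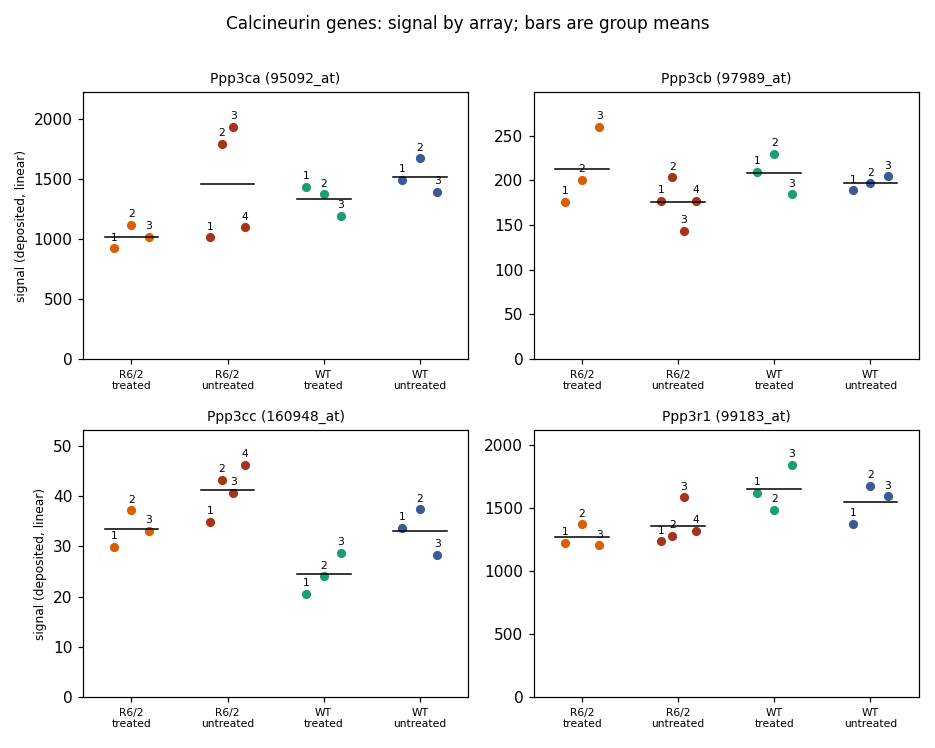
Deposited signal (linear scale) of the 4 calcineurin probe sets on each array, by group; points are arrays with their numbers and bars are group means. In Ppp3ca untreated R6/2 arrays 2 and 3 are the 2 highest points, at 1794.5 and 1934.2, and arrays 1 and 4 are level with the treated R6/2 arrays.

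The treatment comparisons asked whether the drug combination shifted these genes. With limma 0 of 61 passed in treated against untreated R6/2 mice, and the share was 0% over all tested probe sets too. Without untreated R6/2 array 1, 116 of all tested probe sets passed but still 0 of the phosphatases, and at most 3 of all passed without any other single array. An unadjusted p under 0.05 was reached by 10 (16.4%, against 16.9% of all), and the groups did not overlap in 8 (13.1%, against 10.6% of all), 4 higher and 4 lower. The smallest adjusted p was 0.246, for Ptpro, with the signals given above and a difference of -0.40 ± 0.12. This comparison shares the untreated R6/2 arrays with the genotype comparison of untreated mice. Ppp1r2 (95680_at) had 97.8, 78.1 and 97.4 in treated and 65.9, 55.5, 71.0 and 74.7 in untreated R6/2 arrays, which did not overlap (0.45 ± 0.15, adjusted p = 0.247). The largest estimate was 0.90 ± 0.29 for Ptpru (adjusted p = 0.247), whose groups overlapped.

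In treated against untreated wild type mice 0 of 61 passed with limma, where the share over all tested probe sets was 0% as well. An unadjusted p under 0.05 was reached by 6 (9.84%, against 10.3% of all), and 13 did not overlap (21.3%, against 21.8% of all), 3 higher and 10 lower. The untreated wild type arrays used here also serve in the genotype comparison of untreated mice, so the 2 are not independent. The 5 tested PPM1 probe sets, which read magnesium-dependent monomeric phosphatases, all had negative estimates, with a median of -0.37 against 0.01 over all tested. All 5 PP2A regulatory probe sets had negative estimates too, with a median of -0.08. Ppm1a, the stress-kinase phosphatase PP2C alpha, had 206.8, 181.2 and 149.9 in treated and 263.3, 210.3 and 248.3 in untreated wild type arrays, without overlap (-0.43 ± 0.14, adjusted p = 0.324). Ppm1g, found in the nucleus and linked to splicing, had 145.1, 136.0 and 116.5 in treated and 168.8, 181.0 and 160.8 in untreated wild type arrays (-0.37 ± 0.19, adjusted p = 0.525). The 2 tested Ppm1b probe sets gave -0.89 ± 0.28 (101838_r_at, adjusted p = 0.322) and -0.29 ± 0.18 (101837_g_at, adjusted p = 0.578). The smallest adjusted p among the phosphatases was 0.318, for Ppp2r2b (-0.48 ± 0.14).

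The interaction asked whether treatment acted differently in R6/2 and wild type mice, which is the same as asking whether the genotype effect differed between treated and untreated mice. With limma 0 of 61 passed, as did 0% of all tested probe sets, and 10 had an unadjusted p under 0.05 (16.4%, against 13.5% of all). The interaction uses the arrays of all groups, which the comparisons above use as well. The smallest adjusted p was 0.305, reached by Ppm1g and Ppp1r2. Ppm1g had 178.4, 181.1 and 151.6 in treated and 146.3, 112.2, 80.3 and 137.8 in untreated R6/2 arrays. Treated R6/2 arrays were thus above untreated ones (0.55 ± 0.18), the reverse of the wild type order, and the difference of the treatment effects was 0.91 ± 0.26. For Ppp1r2 (95680_at) it was 0.84 ± 0.21.

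**Figure D5:**
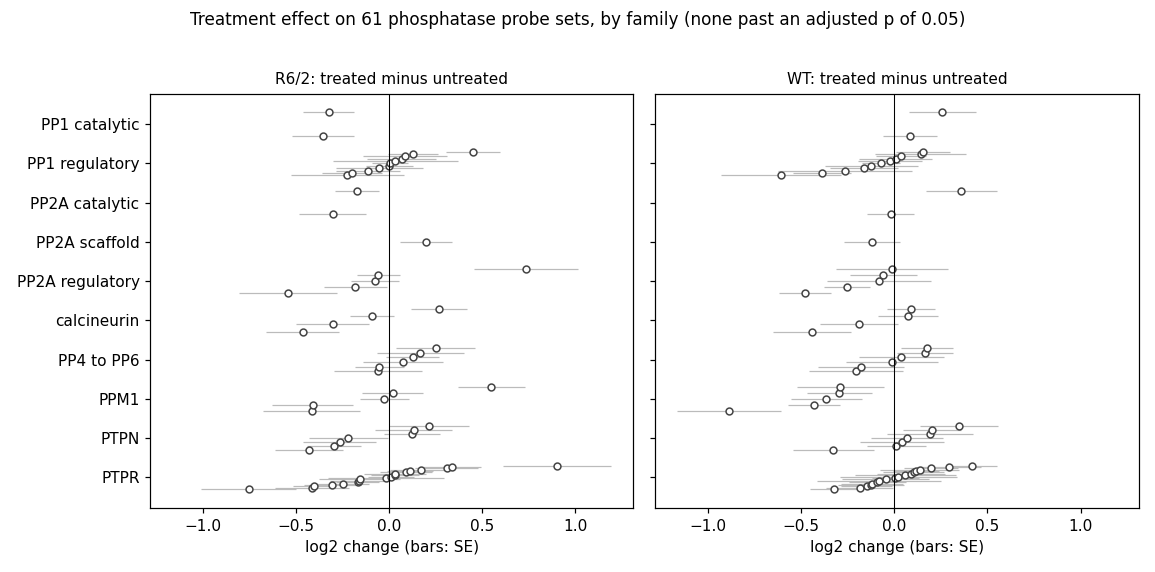
Log2 difference between treated and untreated arrays for each tested phosphatase probe set, by family, in R6/2 mice (left) and wild type mice (right); points are estimates and bars are SE. No point passed an adjusted p of 0.05, and all 5 PPM1 and all 5 PP2A regulatory points lie below 0 in wild type mice.

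The other serine/threonine catalytic subunits had no call. In untreated R6/2 against wild type mice the estimates were -0.32 ± 0.23 for Ppp4c (adjusted p = 0.374), -0.30 ± 0.21 for Ppp5c (adjusted p = 0.363) and 0.27 ± 0.13 for Ppp6c on 103947_at (adjusted p = 0.172). The second Ppp6c probe set (160821_r_at) gave -0.07 ± 0.21 (adjusted p = 0.857), and Ppp6r3, a PP6 regulatory subunit and the brightest of this group, gave 0.09 ± 0.14 (adjusted p = 0.7). Of 6 genes with 2 tested probe sets (Ppm1b, Ppp1r2, Ppp6c, Ptprd, Ptprm and Ptprz1), 5 had estimates of opposite sign in untreated R6/2 against wild type mice, all but Ptprz1 (83.3%, against 42.9% of 806 genes with 2 tested probe sets among all). In treated mice only Ptprz1 had opposite signs (16.7%, against 37.1%). Several of these estimates lay within their SE of 0, and Ppp1r2 was the only one of the 6 genes with a call. Ptprz1, a receptor of glia that binds pleiotrophin and contactin, gave 0.17 ± 0.14 (92378_at, adjusted p = 0.432) and 0.16 ± 0.25 (92379_f_at, adjusted p = 0.712) there. Between treated and untreated R6/2 mice its estimates were -0.25 ± 0.14 and -0.75 ± 0.25 (adjusted p = 0.36 and 0.247). Ptprm, a homophilic adhesion receptor, gave 0.11 ± 0.16 (92308_at, adjusted p = 0.687) and -0.35 ± 0.17 (92309_i_at, adjusted p = 0.175) in untreated mice.

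The 28 phosphatase probe sets too dim to test read 15 receptor and 7 non-receptor tyrosine phosphatase probe sets, 3 of PP1 regulatory subunits, 2 of PPM1 and 1 of a PP2A scaffold. They include all 3 probe sets of Ptprc (CD45) and that of Ptpn6, both of leukocytes and microglia, and the single probe set of Ptpn11. Their deposited values ran from 0.1 to 54, and 31.0% lay under the floor of 3.1. The brightest probe set left out had a geometric mean of 24.2, and the dimmest tested one had 25.9.

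Lists of regulators and partners of phosphatases are set beside the shares of all tested probe sets that passed, 0.792% in treated and 11.9% in untreated mice. The lists were chosen with earlier results of these data known, and only the brightest tested probe set of each gene is counted. The shares are therefore given for scale and are no test of the lists. Of 10 tested inhibitors and partners of PP1 and PP2A, 1 fell in each, Arpp19, an inhibitor of PP2A when phosphorylated and a target of protein kinase A. It had 82.8, 114.3 and 73.6 in treated and 103.5, 150.3, 114.0 and 148.5 in untreated R6/2 arrays, against 233.7, 297.4 and 275.8 in treated and 340.6, 422.2 and 370.3 in untreated wild type arrays. All R6/2 arrays were far below all wild type arrays, and Arpp19 fell by 1.59 ± 0.19 in treated mice (adjusted p = 0.000964) and fell by 1.56 ± 0.18 in untreated mice (adjusted p = 0.000256). A second Arpp19 probe set gave -0.24 and -0.21, which did not pass (adjusted p = 0.845 and 0.474).

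Of 9 tested dual-specificity phosphatases, 2 fell in both treated and untreated R6/2 mice, Dusp1 and Dusp6, which dephosphorylate MAP kinases and are induced by neuronal activity or growth signals. Dusp1 averaged 249.3 ± 11.99 (SD, n = 3) in treated and 213.6 ± 29.5 (SD, n = 4) in untreated R6/2 arrays, against 488.0 ± 93.1 and 379.4 ± 47.4 in treated and untreated wild type arrays (SD, n = 3 each). Dusp6 averaged 194.2 ± 15.7 (SD, n = 3) in treated and 154.9 ± 29.5 (SD, n = 4) in untreated R6/2 arrays, against 345.4 ± 45.9 and 278.9 ± 5.94 in treated and untreated wild type arrays (SD, n = 3 each). The log2 differences were -0.95 ± 0.16 for Dusp1 (adjusted p = 0.00853) and -0.83 ± 0.16 for Dusp6 (adjusted p = 0.0196) in treated mice, and -0.83 ± 0.15 for Dusp1 (adjusted p = 0.00511) and -0.87 ± 0.15 for Dusp6 (adjusted p = 0.00428) in untreated mice.

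In the calcineurin network 1 of 9 tested genes passed in untreated R6/2 mice, near the 11.9% of all tested probe sets. Calm2, which encodes calmodulin, was higher by 0.75 ± 0.17 (adjusted p = 0.0163), with 68.9, 76.6, 77.4 and 85.5 in untreated R6/2 arrays against 57.0, 41.6 and 40.7 in untreated wild type arrays. Treated R6/2 arrays had 70.0, 58.5 and 86.4 and treated wild type arrays 66.1, 75.4 and 78.5 (-0.05 ± 0.18, adjusted p = 0.987). Every untreated wild type array thus lay below every other array. Of 14 tested ligands and partners of receptor tyrosine phosphatases, 1 rose and 2 fell in untreated R6/2 mice. Ctnnb1, the adhesion protein beta-catenin, rose by 0.45 ± 0.13 (adjusted p = 0.0399). It had 972.0, 1302.7, 1379.1 and 1071.3 in untreated R6/2 arrays, highest in arrays 2 and 3, against 766.4, 890.8 and 919.1 in untreated wild type arrays. Ppfia4, a liprin that binds receptors of the Ptprs type, fell by 0.75 ± 0.17 (adjusted p = 0.0163). In treated mice its estimate was 0.25 ± 0.18 (adjusted p = 0.806), of the opposite sign. Src, a kinase activated by receptor phosphatases, fell by 1.501 ± 0.40 in untreated R6/2 mice (adjusted p = 0.0302). Src had 26.3, 24.3, 7.5 and 36.9 in untreated R6/2 arrays, against 75.0, 45.7 and 57.0 in untreated wild type arrays. Arrays 2 and 3 lay under the brightness needed for testing (24.9), array 3 by far. In treated mice the Src difference was -0.03 ± 0.43 (adjusted p = 0.995). None of the 4 lists had a member that passed in a treatment comparison or in the interaction, and in treated mice only Arpp19, Dusp1 and Dusp6 passed.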

How the data were processed

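RNA from whole brain hemispheres was read on 13 one-colour Affymetrix arrays. The authors deposited 1 intensity per probe set and array on a linear scale. Trimmed means (2% off both tails) were 100.047 to 100.128 on every array, so the values had been scaled, and the software is not given in the sources used here. No read depth exists, and the number of arrays limits precision.

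Intensities under 3.1 (the 10th percentile) were set to 3.1, and log2 was taken without further normalization. The 66 controls and probe sets with a mean log2 under the 40th percentile (a signal of 24.9) were left out. Genes came from the platform annotation, in which 10833 probe sets had 1 gene, 396 several and 1193 none. A mean per title group was fitted to all 13 arrays with limma 3.58.1 in R 4.3.3 (intensity trend), and 6 comparisons were made: genotype in treated mice, in untreated mice and on average, treatment in R6/2 and in wild type mice, and their interaction. Two-sided p-values were adjusted by Benjamini-Hochberg over the 7453 tested probe sets, at a threshold of 0.05. The fit was tested on simulated data.

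Members, families, partner lists and markers were chosen with earlier results of these data known. Named were all calcineurin and catalytic subunit probe sets, in each comparison the 8 strongest passing probe sets of either direction (or the 3 smallest p where fewer than 3 passed), the brightest probe set of each family, other probe sets of those genes, and listed partners that passed. The probe sets named only because groups did not overlap, and Ptpn11, Ptpn6 and Ptprc, were chosen after their values were seen. Promoters came from a RefSeq table, which held 53 of the 67 genes. Alternatives changed the filter, floor, normalization, arrays fitted, array weights, variance trend, handling of several probe sets per gene, or left out arrays.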

Additional observations from a re-analysis of the deposited data

Results flagged for a closer look

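In the untreated R6/2 group, array 3 had a signal of 427.5 for Ptprn (104422_at), which lay outside the spread of the other 3 arrays at 670.3 to 724.8. Outlying arrays were sought on log2 values only, whereas the signals above are linear. On the log2 scale the gap to the nearest array made up 0.852 of the group's whole range, above Dixon's critical value for 4 samples. Of 38 named probe sets tested in this group 1 was marked in this way, and chance marks about 1 in 20. Array 3 is also the array with the highest score on the first principal component; whether the 2 are linked was not tested.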

How the results depend on the processing

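Counts of phosphatase probe sets past the threshold moved by over 1.5 times as follows. For genotype in untreated mice (11 as reported) the count was 5 of 89 with no filter on dim probe sets, 2 in a fit to the 7 arrays of those groups alone, and 2 without untreated R6/2 arrays 2 and 3. For genotype averaged over treatment (5 as reported) it was 3 with no filter, 12 with array weights and 3 without the intensity trend. For genotype in treated mice (0 as reported) it was 2 with array weights and 1 without the trend, and for treatment in wild type mice (0 as reported) 1 with array weights. Leaving out 1 array at a time gave 1 to 16 for genotype in untreated mice and 2 to 7 for the average, and 0 in each of 13 fits for genotype in treated mice, treatment in either genotype and the interaction. A group left with 2 arrays relied on the spread of the others. Counts over the whole array moved too: 887 in untreated mice as reported became 512, 243 and 163 in those 3 fits, and 493 for the average became 932 with array weights. In treated mice 59 became 208 with array weights, 119 without untreated R6/2 arrays 2 and 3, and 16 without the 2 arrays that share a lot number. For treatment in wild type mice 0 became 120 with array weights and at most 9 in the other fits. Without 1 array at a time, whole-array counts were 157 to 1308 for genotype in untreated mice and 263 to 704 for the average. They were 20 to 95 for genotype in treated mice, 0 to 116 for treatment in R6/2 mice and 0 to 6 for treatment in wild type mice. The causes were not tested. No called difference changed sign in any alternative fit. Quantile normalization shifted the median of all probe sets by less than 0.02 in every comparison. No paired analysis was possible because the columns and titles carry no replicate numbers. With 3 or 4 arrays per group, differences that missed the threshold are not shown to be absent, and signals near the filter are read least well.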
